A study of Mus musculus with 8 samples.

Results

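Sperm ion and cAMP control was followed here through 4 genes, Adcy10, Slc9c1, Slc9b1 and Atp1a4, taken by symbol from a table of 16349 genes. All 4 symbols were present. The table holds poly A RNA of mouse spermatids in 8 libraries, 2 in each of 4 groups. Round spermatids, the early haploid germ cells, and elongating spermatids, in which the nucleus condenses and the tail is built, were each taken from wild-type (WT) testes and from testes with a conditional knockout (cKO) of Carm1, an arginine methyltransferase. The strain label of every group is C57BL/6 and the treatment label is none. Per the labels, each sample pooled 8 testes, and cells were separated by centrifugal elutriation. The Cre driver, the deleted exons and the age of the mice were not given in the sources used here. Nothing in the labels ties the libraries of a group to separate animals, so each p-value reflects the variation among these libraries alone, which may be technical.

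Mature sperm are quiescent until bicarbonate and sodium reach them after release. Bicarbonate activates soluble adenylyl cyclase, encoded by Adcy10, and the cAMP it makes starts flagellar beating through protein kinase A. Slc9c1 encodes the sperm Na+/H+ exchanger, a protein that joins an exchanger to a voltage sensor and a cyclic nucleotide-binding domain and moves protons out of the tail. Slc9b1 encodes NHA1, another exchanger of the sperm tail. Sodium-proton exchange draws on the sodium gradient, which the Na,K-ATPase keeps up, and Atp1a4 encodes the alpha4 catalytic subunit of that pump, found in male germ cells. In mice, loss of Adcy10, of Slc9c1 or of Atp1a4 leaves males infertile with poor sperm motility. Haploid cells stop transcription as the nucleus condenses, so the RNA of the tail proteins is made before or during elongation.

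Adcy10 lies on the plus strand of chromosome 1 from 165485183 to 165576774, and Atp1a4 on the minus strand of the same chromosome from 172223513 to 172258414 (GENCODE M21, GRCm38). Slc9b1 lies on chromosome 3 from 135348029 to 135397827 and Slc9c1 on chromosome 16 from 45535309 to 45607001, both on the plus strand. All 4 are protein-coding. No exon of another annotated gene overlaps their exons, although antisense genes lie within the spans of Adcy10 and Atp1a4 and the library kit does not mark strand.

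The start regions of the 4 genes are shown because their levels split into a pair that was higher and a pair that was lower in elongating than in round spermatids. Each sequence runs 5′ to 3′ on the strand of its gene, from 250 bases before the RefSeq start to 50 bases from it (GRCm38.p6). Capitals mark the CCAAT box, which reads ATTGG on the other strand, and the GC box GGGCGG, whose other strand reads CCGCCC.
Adcy10, chr1:165484933-165485232: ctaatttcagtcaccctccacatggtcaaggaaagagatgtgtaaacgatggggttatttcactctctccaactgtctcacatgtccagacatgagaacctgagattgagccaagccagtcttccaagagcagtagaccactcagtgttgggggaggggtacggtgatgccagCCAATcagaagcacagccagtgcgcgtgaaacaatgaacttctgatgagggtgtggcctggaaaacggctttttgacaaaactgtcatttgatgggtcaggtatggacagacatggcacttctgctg
Atp1a4, chr1:172258375-172258674, minus strand: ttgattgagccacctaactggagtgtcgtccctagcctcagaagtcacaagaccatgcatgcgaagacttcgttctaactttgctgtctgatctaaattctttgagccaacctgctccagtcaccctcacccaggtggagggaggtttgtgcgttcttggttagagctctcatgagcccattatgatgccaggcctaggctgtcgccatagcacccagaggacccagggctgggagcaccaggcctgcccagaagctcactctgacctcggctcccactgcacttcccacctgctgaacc
Slc9c1, chr16:45535016-45535315: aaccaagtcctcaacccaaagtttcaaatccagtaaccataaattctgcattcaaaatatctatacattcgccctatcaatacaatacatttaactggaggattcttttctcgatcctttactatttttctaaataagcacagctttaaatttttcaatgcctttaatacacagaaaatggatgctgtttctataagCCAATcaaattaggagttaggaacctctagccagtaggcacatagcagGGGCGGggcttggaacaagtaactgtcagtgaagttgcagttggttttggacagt
Slc9b1, chr3:135347779-135348078: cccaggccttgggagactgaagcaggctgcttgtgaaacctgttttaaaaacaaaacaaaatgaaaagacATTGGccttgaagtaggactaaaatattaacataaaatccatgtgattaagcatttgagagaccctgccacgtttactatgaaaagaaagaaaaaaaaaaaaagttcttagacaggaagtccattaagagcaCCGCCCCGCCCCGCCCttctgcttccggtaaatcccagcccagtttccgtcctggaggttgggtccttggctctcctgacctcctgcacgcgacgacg

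The study's title names CREM, a factor known to bind the cAMP response element. The full element TGACGTCA was in the window of 0 of the 4 genes, its half-site TGACG, which lies within the full element, in 0, and TATAAA in 0, each searched on both strands. Of all 32851 RefSeq windows of this length, 1.79% held the full element, 20.8% the half-site and 13.6% TATAAA. The CCAAT box was in 3 of the 4 windows, all but that of Atp1a4, against 37.4% of all windows. GGGCGG was in the windows of Slc9c1 and Slc9b1, against 35.7% of all windows, and these last 2 motifs were chosen after the sequences were seen. The Slc9b1 window holds 3 overlapping copies of CCGCCC, the first of which begins at base -48 from the start. These are matches of letters only.

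Levels are normalised read counts, that is whole reads over a size factor that the authors set for each library. The libraries held between 17190962 and 23526694 recovered reads. Size factors ranged from 1.57 to 1.77 in round and from 0.516 to 0.776 in elongating libraries, while the 50 most abundant genes took 7.92% to 8.14% of reads in round and 31.3% to 34.2% in elongating libraries. Differences between groups therefore depend on the scaling, and many values are also given with libraries scaled to equal totals. That scaling lowered the log2 difference of the median gene between KO-labelled and WT elongating cells from -0.07 to -0.62, so deposited values of other genes in that comparison lie higher than at equal totals by about as much. Tests were limma on log2(value + 1) over 15685 genes with Benjamini-Hochberg adjustment, and rose, fell, higher and lower in counts mean an adjusted p under 0.05. Carm1 measured 1649 and 1686 in WT round, 1174 and 1343 in KO-labelled round, 4308 and 4534 in WT elongating and 8157 and 7993 in KO-labelled elongating libraries. The target gene was thus higher in the elongating libraries labelled cKO (log2 change 0.87, adjusted p = 2.7e-09, and 0.31 at equal totals), so these are called KO-labelled throughout. In round libraries the KO-labelled level was 0.753 times that of WT. A total over a whole gene does not tell if reads of the deleted part were missing. Every direction below for elongating spermatids rests on that label.

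Across the stages of WT cells the 4 genes moved in opposite directions. Atp1a4 and Adcy10 were higher in elongating spermatids, and Slc9c1 and Slc9b1 were lower. All 4 were called, where 81.9% of all genes tested were, 41.7% higher and 40.2% lower. Over all genes that was 6548 higher and 6300 lower, but 3061 and 10792 at equal totals. Fewer cells of a type and less RNA per cell cannot be told apart in such bulk samples.

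Atp1a4, the pump gene, measured 7718 and 8026 in the WT round libraries and 52784 and 52495 in the WT elongating libraries. The groups lay far apart, a 6.69-fold difference (log2 2.74, SE 0.03, adjusted p = 1.2e-19). It stood at rank 193 and 176 of all genes in WT round libraries and at 85 and 86 in WT elongating libraries. At equal totals the log2 difference was 1.27.

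Adcy10, the cyclase gene, measured 5615 and 5769 in WT round and 16296 and 16677 in WT elongating libraries. The difference was 2.90-fold on the deposited scale (log2 1.53, SE 0.03, adjusted p = 1.3e-15). At equal totals it came to 0.07 on the log2 scale (adjusted p = 0.045), so nearly all of its absolute size rests on the scaling. Relative to the median gene under each scaling, Adcy10 stayed close, at 1.524 as deposited and 1.495 at equal totals. Its rank in the library stayed close, 344 and 328 in WT round and 340 and 335 in WT elongating.

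Slc9c1, the sperm exchanger gene, measured 2409 and 2407 in WT round and 574 and 529 in WT elongating libraries. The elongating level was 0.229 times the round level (log2 -2.13, SE 0.05, adjusted p = 1.2e-14), and 3.41% of the genes tested had a lower log2 difference. Slc9b1, the NHA1 gene, followed closely, with 1988 and 2037 in WT round and 576 and 519 in WT elongating libraries (log2 -1.88, SE 0.06, adjusted p = 9.0e-14). At equal totals these log2 differences were larger, -3.59 and -3.34. As deposited, 6.35% of the genes tested had a lower log2 difference than Slc9b1, 76.6% than Adcy10 and 88.9% than Atp1a4.

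**Figure D1:**
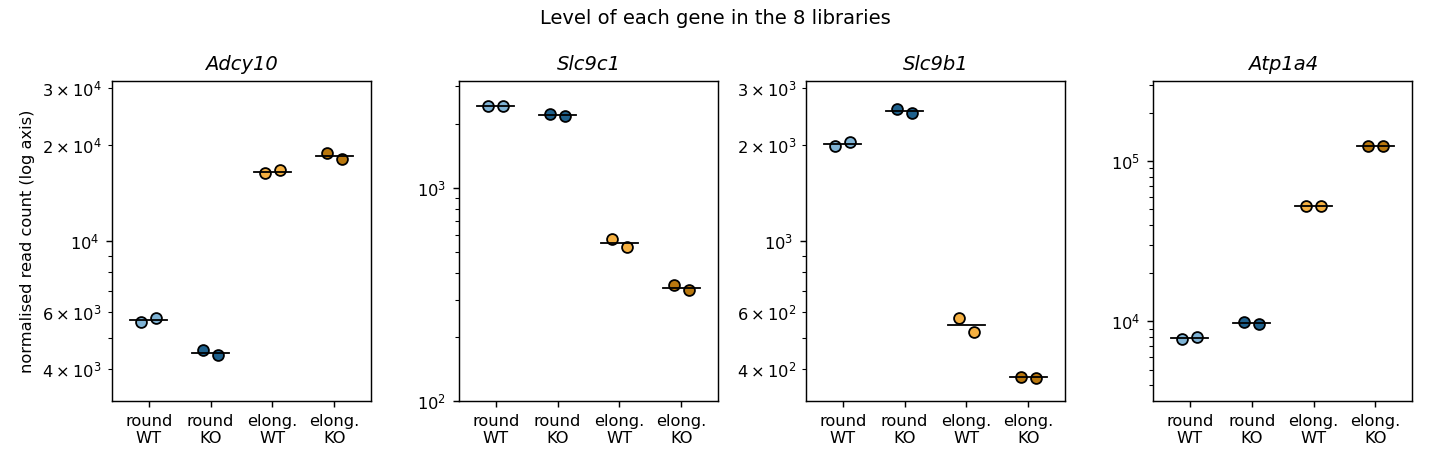
Normalised read count (log axis) of each gene in the 8 libraries, with a line at each group mean. The exchanger genes Slc9c1 and Slc9b1 sit at 1988 or more in round and at 576 or less in elongating libraries, while Adcy10 and Atp1a4 are higher in elongating libraries.

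Per kilobase of annotated exon, the 4 genes were not equally abundant. In WT round cells Atp1a4 measured 2147 ± 59.3 per kilobase (SD, n = 2 libraries), above Adcy10 at 651 ± 12.5, Slc9c1 at 594 ± 0.421 and Slc9b1 at 546 ± 9.38. In WT elongating cells the order was Atp1a4 at 14355 ± 55.7, Adcy10 at 1887 ± 30.8, Slc9b1 at 148 ± 10.9 and Slc9c1 at 136 ± 7.74. The exchanger genes overlapped there, with 156 and 141 for Slc9b1 and 141 and 130 for Slc9c1. These lengths join the exons of all annotated transcripts of a gene, which can lower the value of a gene with many transcripts. The joined length was 8739 bases for Adcy10, 4057 for Slc9c1, 3689 for Slc9b1 and 3667 for Atp1a4.

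In round spermatids the KO-labelled libraries had less Adcy10 and more Atp1a4 and Slc9b1 RNA. Of the 4 genes 3 were called, where 32% of all genes tested were, 19.4% higher and 12.6% lower. Over all genes that split was 3041 higher and 1977 lower, and 2190 and 3044 at equal totals. Adcy10 fell from 5615 and 5769 in WT to 4564 and 4400.4 in KO-labelled libraries (log2 -0.34, SE 0.03, adjusted p = 2.0e-06). Atp1a4 rose to 9836 and 9635 (log2 0.31, SE 0.03, adjusted p = 9.2e-07), and Slc9b1 rose to 2582 and 2513 (log2 0.34, SE 0.06, adjusted p = 0.00034). The libraries of the groups did not overlap for any of the 3 genes. How often this held over all genes tested was not counted, here or for the elongating cells. At equal totals the log2 values were -0.43, 0.22 and 0.25, and all 3 were still called. As deposited, 17.6% of the genes tested had a lower log2 difference than Adcy10, 78.8% than Atp1a4 and 81.0% than Slc9b1.

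Slc9c1 measured 2217 and 2172 in KO-labelled round libraries, below both WT libraries. The log2 difference was -0.13 with a 95% interval of -0.25 to -0.02, and it did not pass (adjusted p = 0.079). It passed at equal totals (-0.22, adjusted p = 0.0054), in edgeR's quasi-likelihood test (-0.13, adjusted p = 0.0024) and in a fit of the 4 round libraries alone (adjusted p = 0.0085).

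In elongating spermatids all 4 genes were called, where 55% of all genes tested were, 27.3% higher and 27.7% lower. Over all genes that split was 4279 higher and 4348 lower, and 1388 and 9839 at equal totals. Atp1a4 rose from 52784 and 52495 in WT to 125004 and 123800.1 in KO-labelled libraries, 2.36-fold (log2 1.24, SE 0.03, adjusted p = 1.3e-13). Of the genes tested, 95.9% had a lower log2 difference than Atp1a4, 63.2% than Adcy10, 22.4% than Slc9b1 and 16.2% than Slc9c1. At equal totals the value of Atp1a4 was 0.68 (adjusted p = 9.7e-12). Its rank in the library went from 85 and 86 in WT to 55 in both KO-labelled libraries.

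The exchanger genes fell. Slc9c1 went from 574 and 529 to 349 and 334 (log2 -0.69, SE 0.05, adjusted p = 5.1e-08), and Slc9b1 from 576 and 519 to 378 and 375 (log2 -0.54, SE 0.06, adjusted p = 1.3e-06). WT and KO-labelled libraries did not overlap for either gene, and at equal totals the falls were larger, -1.25 and -1.10. These levels rest on 177 to 447 recovered reads per library, far fewer than the 36404 to 65670 behind Atp1a4. The summed level of 8 spermatocyte markers was also lower in the KO-labelled libraries of this stage, 995 to 1034 against 1562 to 1673, and that of 8 spermatid markers was higher, 4000330 to 4100210 against 2288390 to 2297380, or 9.02% to 9.07% of the library total against 7.52% to 7.61%. As deposited, 6 of these 8 markers rose and 2 fell, a count not given here at equal totals. The falls were those of the acrosomal genes Acrv1 (log2 -0.89) and Spaca1 (-1.42). The protamine gene Prm2 alone had means of 1183360 in WT and 2189090 in KO-labelled libraries. The part of the marker changes in the falls of the exchanger genes was not tested.

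Adcy10 measured 18818 and 18120.4 in KO-labelled elongating libraries against 16296 and 16677 in WT. As deposited this was a rise (log2 0.16, SE 0.03, adjusted p = 0.00068), but at equal totals it was a fall (-0.40, adjusted p = 1.7e-08), so its direction depends on the scaling. Relative to the median gene under each scaling, Adcy10 lay at 0.24 and 0.22. On the same footing Atp1a4 lay at 1.31 and 1.29, Slc9b1 at -0.47 and -0.48, and Slc9c1 at -0.62 and -0.63.

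**Figure D2:**
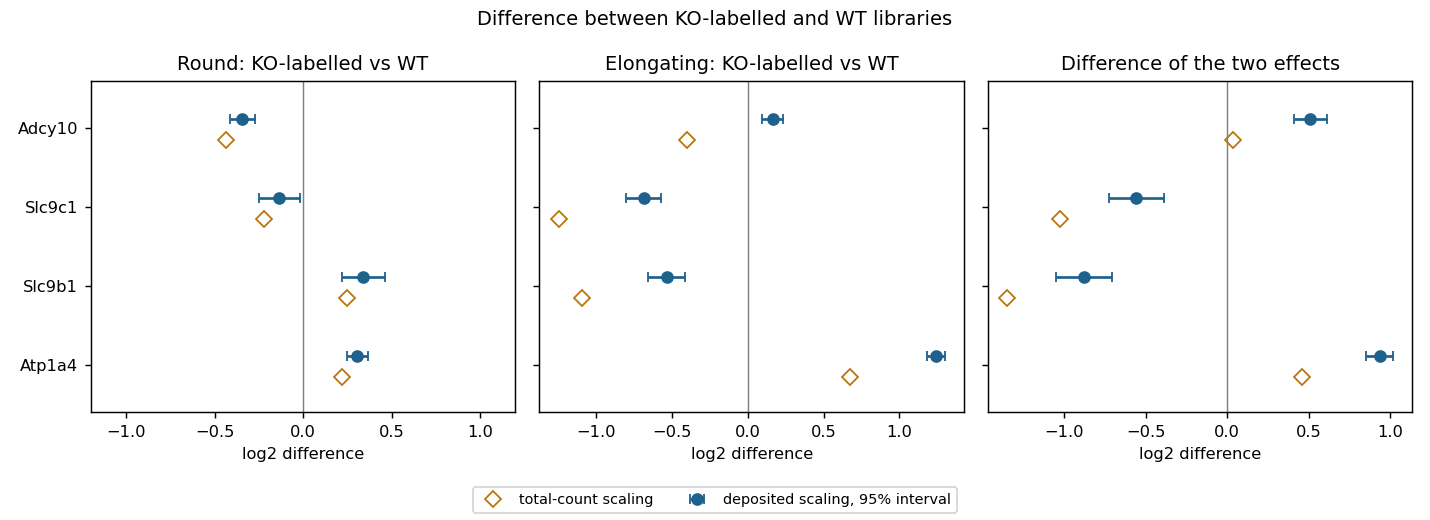
Log2 difference between KO-labelled and WT libraries for each gene in round and in elongating spermatids, and the elongating minus the round difference. Circles with 95% intervals show the deposited scaling and diamonds equal library totals. Adcy10 in elongating cells lies at 0.16 and at -0.40, on opposite sides of 0, while the other genes keep their side in each panel.

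The difference between KO-labelled and WT libraries was not the same at both stages. The test of that difference called all 4 genes, where 36.9% of all genes tested were called, 19.3% in the positive and 17.5% in the negative direction. At equal totals 853 were positive and 7055 negative, against 3031 and 2750 as deposited. The elongating minus the round difference was 0.93 for Atp1a4 (SE 0.04, adjusted p = 1.2e-09) and -0.88 for Slc9b1 (SE 0.08, adjusted p = 6.6e-07). It was -0.56 for Slc9c1 (SE 0.08, adjusted p = 4.3e-05) and 0.51 for Adcy10 (SE 0.05, adjusted p = 6.7e-07). At equal totals it was 0.46, -1.35, -1.03 and 0.03, and that of Adcy10 no longer passed (adjusted p = 0.53). Relative to the median gene under each scaling, that of Adcy10 was 0.549 as deposited and 0.529 at equal totals. Slc9b1 alone of the 4 was called in opposite directions at the stages under both scalings, higher in round and lower in KO-labelled elongating cells.

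In KO-labelled cells the gap between the stages was wider for each gene on the deposited scale. Atp1a4 was 12.8-fold higher in elongating than in round libraries and Adcy10 4.12-fold higher, while Slc9c1 and Slc9b1 stood at 0.156 and 0.148 times their round level. All 4 were called, where 84.3% of all genes tested were, 42.6% higher and 41.8% lower, that is 6677 and 6552 genes, but 2611 and 11417 at equal totals. At equal totals the log2 differences between the stages were 1.73, 0.10, -4.62 and -4.69. This comparison shares its KO-labelled elongating libraries and its KO-labelled round libraries with the comparisons above, so it is no separate evidence.

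By level, the groups had the same order for the exchanger genes at the elongating end and another at the round end. Slc9c1 was lowest in KO-labelled elongating cells, then WT elongating, KO-labelled round and WT round cells. Slc9b1 was lowest in KO-labelled elongating and WT elongating cells and highest in KO-labelled round cells. Atp1a4 went from WT round through KO-labelled round and WT elongating to KO-labelled elongating cells, and Adcy10 from KO-labelled round through WT round and WT elongating to KO-labelled elongating cells. No library of a group overlapped with a library of the next group for any gene, although the round groups of Slc9c1 did not pass the test. The share of all genes that also lacked overlap was not counted. Elongating WT was not tested against KO-labelled round cells.

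Ratios of reads within a library do not depend on its scaling. There were 3.20 and 3.34 reads of Atp1a4 per read of Slc9c1 in WT round and 4.44 in both KO-labelled round libraries. In WT elongating libraries there were 92.0 and 99.2, and in KO-labelled elongating libraries 358 and 371. Adcy10 per Slc9c1 went from 2.33 and 2.40 in WT round, and 2.06 and 2.03 in KO-labelled round, to 28.4 and 31.5 in WT elongating and 53.9 and 54.3 in KO-labelled elongating libraries. The balance of cyclase and pump to exchanger RNA was therefore higher in KO-labelled elongating than in WT elongating libraries, with no overlap.

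The exchangers' own ratio stayed between 0.825 and 1.164. Slc9b1 per Slc9c1 was 0.825 and 0.847 in WT round and 1.164 and 1.157 in KO-labelled round libraries. It was 1.00 and 0.981 in WT elongating and 1.08 and 1.12 in KO-labelled elongating libraries. At each stage the KO-labelled libraries were higher than the WT libraries. With 2 libraries against 2 these ratios are descriptions, with no test.

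**Figure D3:**
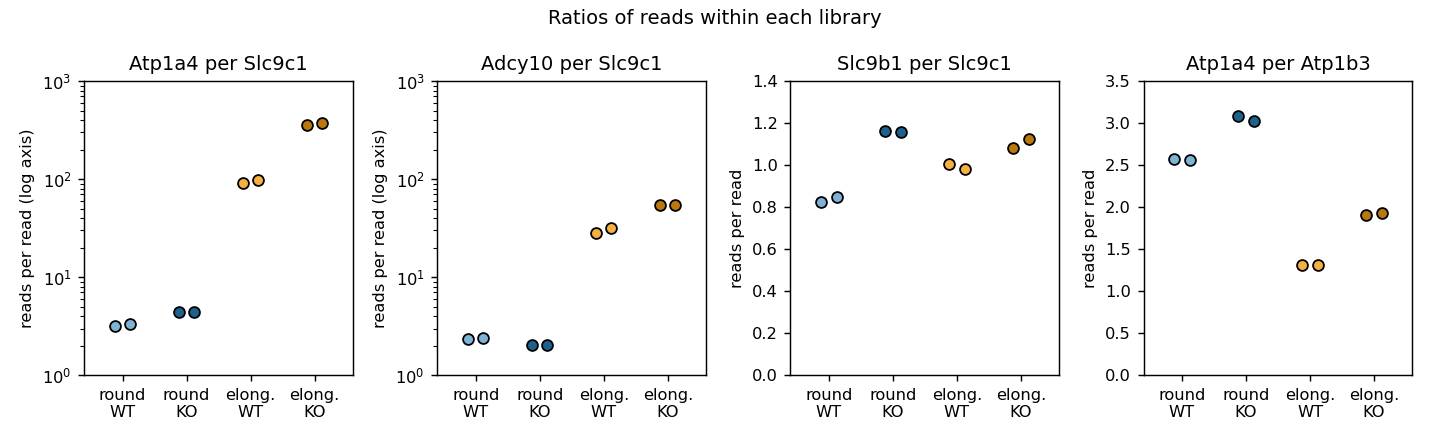
Reads of the first gene per read of the second in each of the 8 libraries; the left 2 panels have a log axis and the right 2 start at 0. Atp1a4 per Slc9c1 lies between 3.20 and 4.44 in round libraries and between 92.0 and 371 in elongating libraries, highest in those labelled KO.

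The Na,K-ATPase needs a beta subunit beside alpha. Atp1b3, the beta3 gene, was the only other subunit gene of the list with a mean of at least 1000. It measured 3065 ± 90.4 in WT round, 3190 ± 6.80 in KO-labelled round, 40120 ± 349 in WT elongating and 64758 ± 1013 in KO-labelled elongating cells (n = 2 each). It rose in KO-labelled elongating cells by log2 0.69 (adjusted p = 6.6e-11), and by 0.13 at equal totals, less than Atp1a4. Atp1a4 per Atp1b3 was 2.57 and 2.56 in WT round, 3.08 and 3.03 in KO-labelled round, 1.31 and 1.32 in WT elongating and 1.91 and 1.93 in KO-labelled elongating libraries.

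Fxyd2, a regulatory subunit gene known from kidney, fell from 119 ± 1.15 to 14.2 ± 3.86 in round and from 876 ± 10.6 to 230 ± 23.5 in elongating cells, the largest change of the list at each stage (log2 -3.01 and -1.93). Over all genes tested 19.4% rose and 12.6% fell in KO-labelled round cells, and 27.3% and 27.7% in KO-labelled elongating cells. Of the 15 subunit genes listed 11 were tested. In KO-labelled round cells 2 rose, Atp1a4 and the beta2 gene Atp1b2, and 2 fell, Fxyd2 and Fxyd6, and at equal totals, where Atp1b2 did not pass (0.19) but Fxyd1 did (1.34), the count was again 2 and 2. In KO-labelled elongating cells 2 rose and 3 fell (median log2 -0.10, against -0.07 over all genes), or 2 and 6 at equal totals. Between WT elongating and WT round cells 10 were higher in the elongating cells and 0 lower, and 9 and 2 at equal totals. Over all genes 41.7% were higher and 40.2% lower as deposited.

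Of the 12 Na+/H+ exchanger genes listed 11 were tested, and over all genes 32% were called in round and 55% in elongating cells. In KO-labelled round cells 2 rose, Slc9b1 and the endomembrane exchanger gene Slc9a8, and 2 fell, Slc9a5 among them. In KO-labelled elongating cells 3 rose and 3 fell, Slc9c1 and Slc9b1 among the falls, but at equal totals 0 rose and 5 fell. The rises also dropped to 1 in DESeq2, in a fit of the 4 elongating libraries and without any 1 of 7 of the 8 libraries, and to 2 without KO-labelled elongating replicate 2. Slc9a5 fell from 387 ± 5.20 to 272 ± 11.9 in round cells and measured 172 ± 4.67 and 265 ± 35.2 in elongating cells, a rise as deposited (0.62) that did not pass at equal totals (0.06). Slc9a7, with the largest rise in elongating cells, was low, at 8.27 in WT against 21.1 in KO-labelled cells, and did not pass at equal totals. The median log2 difference of the list was -0.04 in round and 0.05 in elongating cells, against 0.03 and -0.07 over all genes.

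Carbonic anhydrases and anion transporters set the bicarbonate that the cyclase senses, and 17 of 21 such genes listed were tested, lactate transporters included. Of these 4 rose and 2 fell in round and 5 rose and 3 fell in KO-labelled elongating cells, but at equal totals 2 rose and 7 fell in the latter. Over all genes 32% were called in round and 55% in elongating cells as deposited. Car2, a carbonic anhydrase that makes bicarbonate, measured 1060 ± 5.42 in WT round and 36204 ± 122 in WT elongating cells, a log2 difference of 5.09. In KO-labelled elongating cells it was at 51037 ± 769, log2 0.50 higher as deposited but -0.07 at equal totals, a call in the other direction. Slc26a8, an anion transporter gene of the sperm annulus, fell from 841 ± 53.7 to 664 ± 29.5 in elongating cells (log2 -0.34, adjusted p = 6.3e-05, and -0.90 at equal totals). Like the exchanger genes it was lower in WT elongating than in WT round cells (log2 -1.77). Slc4a7 and the lactate transporter gene Slc16a7 did not pass in KO-labelled elongating cells as deposited (0.11 and -0.04) but were lower at equal totals (-0.45 and -0.60), and Bsg, the partner of lactate transporters, fell (-0.10, and -0.66 at equal totals). The largest called changes were of low genes, the anion exchanger gene Slc4a3 in round (2.20 to 5.75, log2 1.13) and the carbonic anhydrase gene Car15 in elongating cells (122 ± 2.92 to 259 ± 15.1, log2 1.08, and 0.52 at equal totals).

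The other 7 adenylyl cyclase genes tested, all of transmembrane cyclases, had group mean normalised counts no higher than the 197 of Adcy7 in WT elongating cells, with lengths not taken into account. In KO-labelled round cells 1 of 8 rose, Adcy7 (log2 0.99), and 2 fell, Adcy6 and Adcy10. In KO-labelled elongating cells 2 rose, Adcy10 and Adcy6 (0.48), and at equal totals 0 rose and 6 fell. Of 15 phosphodiesterase genes, whose products break down cyclic nucleotides, 3 rose and 2 fell in round and 4 rose and 5 fell in KO-labelled elongating cells. The shares called over all genes, to be set beside the cyclases too, were 32% in round and 55% in elongating cells. Pde1a went from 5132 ± 241 to 9085 ± 493 in elongating cells (log2 0.82), Pde4a from 868 ± 34.1 to 539 ± 31.1 (-0.69), Pde1c from 715 ± 17.1 to 540.1 ± 1.36 (-0.40) and Pde8a from 1058 ± 14.5 to 855 ± 13.9 (-0.31). At equal totals these values were 0.26, -1.25, -0.97 and -0.87, and over the list 1 rose, Pde1a, and 8 fell. The largest called changes were of low genes, Pde8b in round (28.4 to 69.6, log2 1.27) and Pde11a in elongating cells (8.35 to 32.4, log2 1.91, not passing at equal totals).

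The targets of cAMP moved in both directions. Of 10 effector and anchor genes 5 rose and 1 fell in round and 5 rose and 4 fell in KO-labelled elongating cells, and at equal totals 1 and 1, and 3 and 6. As deposited, 32% of all genes tested were called in round and 55% in elongating cells. The protein kinase A regulatory gene Prkar2a rose from 36929 ± 389 to 61262 ± 1524 in elongating cells and the anchor gene Akap4 from 204166 ± 4655 to 374533 ± 14364 (log2 0.73 and 0.88, and 0.17 and 0.31 at equal totals). The catalytic gene Prkaca fell from 543 ± 7.07 to 354 ± 42.9 (-0.62, and -1.18 at equal totals). Prkar1a, another regulatory gene, was at 0.22 as deposited and -0.35 at equal totals, the anchor gene Akap3 did not pass as deposited (0.01) but was lower at equal totals (-0.55), and Prkar1b had the largest rise (0.94, and 0.38 at equal totals). Without WT elongating replicate 1 the falls among the 10 genes went from 4 to 1, and without KO-labelled elongating replicate 2 to 2. Of 11 pH-gated channel genes, the CatSper subunits with Kcnu1 and Lrrc52, 2 rose and 8 fell in KO-labelled elongating cells, and 1 and 10 at equal totals. As deposited, 27.3% of all genes tested rose and 27.7% fell there. The pore genes Catsper1, Catsper2 and Catsper4 fell by 0.35, 0.90 and 0.34 on the log2 scale, and Tex40, now Catsperz, and the potassium channel gene Kcnu1 each fell by 0.19. Catsperd did not pass as deposited (-0.02) but was lower at equal totals (-0.59). The 2 rises were Catsperg2 (2.08) and Catsperg1 (0.45), and that of Catsperg1 turned to -0.11 at equal totals. These 2 genes are near-identical neighbours, and whether reads were split between them was not tested. From WT round to WT elongating cells the mean of Catsperg1 went from 2167 to 9994 and that of Catsperg2 from 1686 to 842. In KO-labelled round cells Catsperg1 and Catsperg2 rose and Catsper1 and Catsper2 fell, and 1 rose and 3 fell at equal totals.

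**Figure D4:**
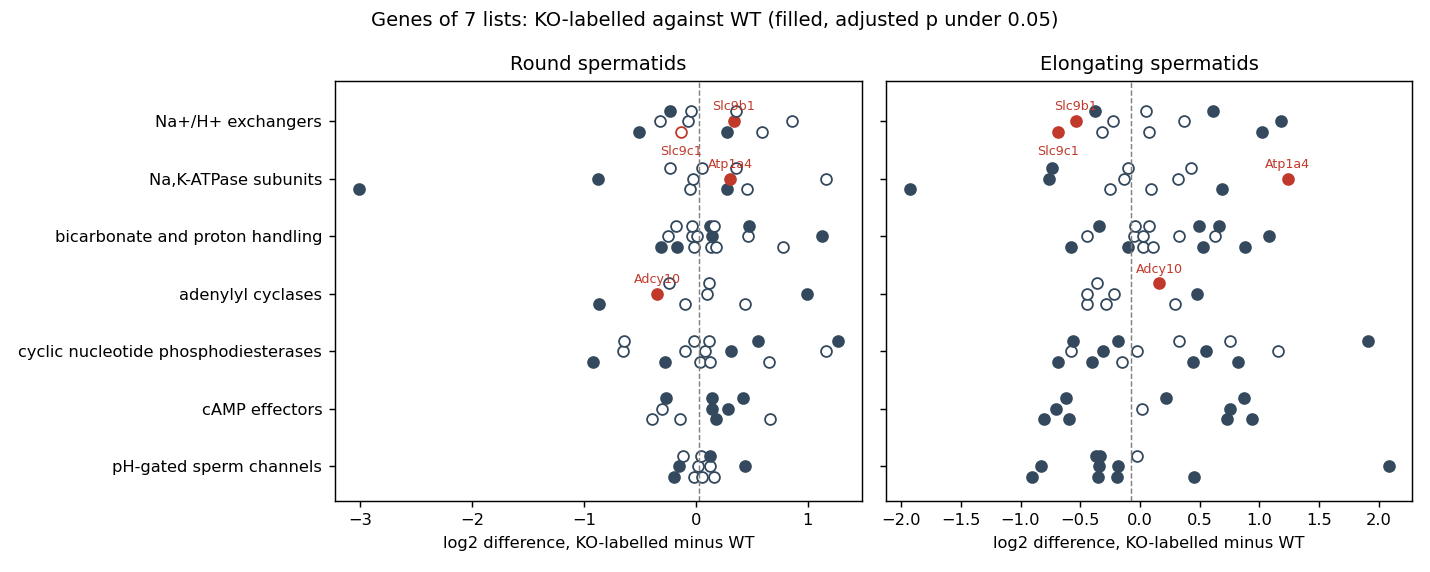
Log2 difference between KO-labelled and WT libraries for the tested genes of 7 lists, in round and in elongating spermatids, on the deposited scaling; the dashed line is the median of all genes tested, red marks the 4 genes described here, and filled points had an adjusted p under 0.05. In elongating cells Atp1a4 lies at 1.24 and Slc9c1 and Slc9b1 at -0.69 and -0.54.

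The genes beside the 4 loci did not move with them as a group. Mpc2, a mitochondrial pyruvate carrier gene 3969 bases from Adcy10, rose in KO-labelled round cells (0.42) where Adcy10 fell. In elongating cells it was at 0.31, and at -0.25 at equal totals. On the other side of Adcy10, Mpzl1 rose in round (0.54) and fell in KO-labelled elongating cells (-0.70). Casq1, 3645 bases from Atp1a4, fell in round (-0.55) and elongating (-0.82) KO-labelled cells, where Atp1a4 rose, and Igsf8 on its other side had values of -0.20 and -0.31 that did not pass as deposited, though the second, -0.87 at equal totals, did. Gm609, beside Slc9c1, fell at both stages (-0.64 and -0.71). Bdh2 and Cisd2, beside Slc9b1, did not pass at either stage as deposited, though Cisd2 was lower in elongating cells at equal totals (-0.77), and Gcsam, beside Slc9c1, was too low to be tested.

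By distance between log2 profiles over the 8 libraries, each centred on its mean, the genes most like each of the 4 were sought among 8604 genes with a mean of at least 100. For Slc9c1 they were 1700040L02Rik, Adgrl2 and Gfpt1 (distances 0.13, 0.14 and 0.14). For Slc9b1 they were Vimp, Cep72 and Hist1h2bp (0.14, 0.15 and 0.15), and for Adcy10 Gzmn, Fnbp1l and Mapre3 (0.14, 0.19 and 0.21). Atp1a4 had the farthest, Pappa, Cdk18 and Arid1b (0.22, 0.28 and 0.33). Pappa, for example, had group means of 231 in WT round, 275 in KO-labelled round, 1513 in WT elongating and 3210 in KO-labelled elongating cells.

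Markers of other cells moved with stage and label. Sums and counts of markers here are on the deposited scale. There 19.4% of all genes tested rose and 12.6% fell in KO-labelled round cells, and 27.3% and 27.7% in KO-labelled elongating cells. In KO-labelled elongating cells 0 of 9 Sertoli markers rose and 6 fell, 0 of 8 macrophage markers rose and 8 fell, and 4 of 6 peritubular and vascular markers rose and 1 fell. In KO-labelled round cells 5 Sertoli markers fell and 4 macrophage markers rose. The summed normalised level of 8 spermatocyte markers was 6383 to 6486 in WT round, 5648 to 5709 in KO-labelled round, 1562 to 1673 in WT elongating and 995 to 1034 in KO-labelled elongating libraries. In KO-labelled elongating cells 6 of the 8 fell, with 1 rise, and in KO-labelled round cells 4 fell, with 1 rise. Of Sertoli markers 9 of 10 were in the table, and they summed to 309 in both WT round libraries, 188 to 211 in KO-labelled round, 6455 to 6524 in WT elongating and 4631 to 4719 in KO-labelled elongating libraries, and macrophage markers, 8 of 8, to 114 to 146, 164 to 178, 9011 to 9033 and 3863 to 3933. Peritubular and vascular markers, 6 of 6, summed to 302 to 327, 412 to 432, 1448 to 1488 and 3233 to 3285. Leydig markers, 3 of 5, summed to 10.8 to 12.7 in WT round and 14.0 to 19.2 in KO-labelled round libraries. In elongating libraries they summed to 51.9 to 74.8 in WT and 101.8 to 118.3 in KO-labelled libraries. None of the 3 passed in a comparison of KO-labelled with WT libraries. Spermatogonia markers, 6 of 6, summed to 668 to 701 in WT round, 762 to 827 in KO-labelled round, 854 to 889 in WT elongating and 628 to 690.4 in KO-labelled elongating libraries, where 1 rose and 4 fell, while in KO-labelled round cells 3 rose and 0 fell. By share of reads, spermatogonia markers went the other way between WT stages, with 0.00611% to 0.00638% in round and 0.00281% to 0.00295% in elongating libraries. The other marker lists kept their direction between WT stages. No marker in the table was at 0 in a whole group. The 8 spermatid markers summed to 111034 to 114305 in WT round, 122298 to 127597 in KO-labelled round, 2288390 to 2297380 in WT elongating and 4000330 to 4100210 in KO-labelled elongating libraries. The part of these cells, or of the mix of spermatid steps, in the changes of the 4 genes was not tested.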

How the data were processed

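RNA-seq of 8 libraries was read from the deposited table, in which the authors gave a normalised signal per gene and library. By its steps this signal is a whole read count divided by a size factor: 100% of values were whole multiples of what 1 read is worth in that library (tolerance 1e-06). Per the submitters' processing notes, the tools were TopHat2 2.0.10, HTSeq 0.6.0, DESeq 1.16.0 and CASAVA 1.8.2 and the builds mm10 and GRCm38. Their roles, the strand setting and the annotation were not given in the sources used here.

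Of 16349 genes, the 15685 that reached 10 in 2 or more libraries were tested with limma 3.58.1 (R 4.3.3; empirical Bayes trend, log2(value + 1), 4 group means, 4 residual degrees of freedom, two-sided). The 1 added in log2(value + 1) understates changes of low genes. Because the values are not raw counts, edgeR 4.0.16 and DESeq2 1.42.0 on recovered reads were alternatives; edgeR called 4156 genes higher and 3163 lower in round and 4023 and 4113 in elongating KO-labelled cells. Other alternatives were a pseudocount of 10, no filter, equal library totals, library sizes without the 50 most abundant genes, 4 libraries per fit, a replicate block and leaving out each library. Libraries of a group differed by more than sampling noise (chi-square 1.37 to 2.31 per gene).

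The 4 genes and all lists were chosen with earlier results of these data known. No gene of the table had fewer than 15 recovered reads in all. Named list genes had a mean of at least 1000 or the largest called change in a knockout comparison; a few others, such as Slc9a8, were named to spell out a small count after their values were seen. Some list genes that met the rule are not reported here. Neighbours were the nearest genes in the table on each side. Of 96 listed pathway genes 85 were in the table, Catsperz under the older symbol Tex40. Positions and exon lengths came from GENCODE M21, start sequences from RefSeq. Protein sequences were not used here.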

Additional observations from a re-analysis of the deposited data

Results flagged for a closer look

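The 4 genes were taken by symbol. They were flagged afterwards because the difference between KO-labelled and WT libraries was not the same in elongating as in round spermatids. The flag rests on limma's test of that difference over all genes tested. That test called 5781 of the 15685 genes (36.9%), so such a difference was common in the table. The elongating minus the round log2 difference was 0.93 for Atp1a4, -0.88 for Slc9b1, -0.56 for Slc9c1 and 0.51 for Adcy10. In Atp1a4 both stages were higher in KO-labelled cells, by 0.31 and 1.24, and in Slc9b1 the sign changed, from 0.34 to -0.54. Those of Atp1a4, Slc9b1 and Slc9c1 passed under each scaling tried, while that of Adcy10 did not.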

How the results depend on the processing

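Of the 20 log2 differences of the 4 genes, all kept their direction and side of the threshold with a pseudocount of 10, with no filter, in DESeq2 and under the replicate block. DESeq2 called 1 cyclase and 5 cAMP effectors in elongating cells, and edgeR and the fit of 4 libraries 7 channel genes in round cells. With equal library totals and with library sizes that leave out the 50 most abundant genes, the elongating KO-labelled against WT value of Adcy10 turned from 0.16 to -0.40 and -0.34, its difference between the stages came from 0.51 to 0.034 and 0.093 and no longer passed, and the round value of Slc9c1, -0.13, came past the threshold at -0.22 and -0.22. The round value of Slc9c1 also passed in edgeR (-0.13) and in the fit of 4 libraries (-0.13); the cause was not tested. These scalings moved the median gene in elongating KO-labelled cells from -0.07 to -0.62 and -0.56, and in elongating against round WT cells from 0.01 to -1.43 and -1.01.

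Leaving out 1 library at a time, Slc9c1 in round cells ranged from -0.15 to -0.12 and passed without either elongating KO-labelled library (adjusted p = 0.045 in each); its other adjusted p-values lay between 0.059 and 0.28. Every other call of the 4 genes held, with Atp1a4 in elongating cells between 1.23 and 1.25, Slc9c1 between -0.75 and -0.63, Slc9b1 between -0.61 and -0.46 and Adcy10 between 0.14 and 0.19. Genes called in round cells ranged from 3359 to 5858, against 5018 with all libraries. A group left with 1 library is assumed to vary like the others. Counts of list genes called in round cells dropped without round KO-labelled replicate 2 from 4 to 2 for exchangers, pump subunits and channels and from 6 to 3 for bicarbonate and proton genes, and without round WT replicate 1 from 4 to 2 for exchangers and channels and from 6 to 3 for cAMP effectors. Without round WT replicate 2 or round KO-labelled replicate 1, 3 bicarbonate and proton genes were called, and without elongating WT replicate 2 or elongating KO-labelled replicate 1 the cyclases called in elongating cells went from 2 to 1. Exchangers called higher in elongating cells went from 3 to 1 or 2 under every omission, and cAMP effectors called lower there from 4 to 1 without elongating WT replicate 1, to 3 without its replicate 2 and to 2 without elongating KO-labelled replicate 2.

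The replicate numbers of the labels showed no shared deviation: correlations of same-numbered deviations between groups lay between -0.09 and 0.03. Such correlations cannot tell whether samples were paired in their preparation. With the number as a block, Atp1a4 in elongating cells stayed at 1.24 and Slc9c1 in round cells at -0.13 (adjusted p = 0.079), and 4932 and 8583 genes were called in round and elongating cells. With 2 libraries a group the precision is limited, and for Slc9c1 and Slc9b1 in elongating cells also by their few reads.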
